A study of Mus musculus with 6 samples.

Results

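The MYC, MAX and MLX network is a set of basic helix-loop-helix leucine zipper transcription factors that compete for shared dimer partners. The 10 genes described here were chosen by name, as the rows Myc, Mycn, Mycl, Max, Mxd1, Mxd3, Mxd4, Mxi1, Mlx and Mlxipl, out of 24421 genes in the table. RNA was sequenced from mouse pancreatic islets, the clusters of endocrine cells that hold the insulin-secreting β cells. Of the 6 libraries, 3 were labelled as a β cell-specific knockout, with a floxed allele of Dhps and the MIP1-CreERT transgene, and 3 were labelled control. MIP1-CreERT is a Cre recombinase that acts once an estrogen receptor ligand such as tamoxifen is given, and the mouse insulin promoter that drives it directs it to β cells, so other islet cells should keep the gene. All 6 were on the C57BL/6J background, and all carried the prefix HF in their names, which the labels did not spell out. Age, time, any inducing agent and whether controls carried Cre were not given in the labels. Dhps encodes deoxyhypusine synthase, which uses the polyamine spermidine to modify the translation factor eIF5A, and the series title links this step to β cell proliferation. Nothing in the labels ties each replicate to its own animal, so every p below reflects library-to-library spread alone, part of which may be technical.

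In this network MYC, MYCN and MYCL each pair with MAX to activate genes through the E-box CACGTG, a short DNA element, while the MXD proteins pair with MAX and recruit SIN3 corepressors to the same element. MLX is a second common partner, which joins several MXD proteins and the glucose-responsive factors ChREBP (encoded by Mlxipl) and MondoA (encoded by Mlxip). In β cells ChREBP is known to mediate part of the transcriptional response to glucose, and both MYC and ChREBP are known for roles in β cell replication.

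Promoter sequence was available from RefSeq (build GRCm38.p6, the assembly that mm10 names) for 9 of the 10 genes, in 12 windows that run across annotated starts; Myc had none. The E-box CACGTG, which reads the same on both strands, occurred in windows of 4 of these 9 genes, against 11.5% of the tested genes with a window. By window the count was 4 of 12, against 9.57% of windows of the same length over the tested genes. A match describes letters and is not evidence of binding. The carbohydrate response element of ChREBP, a longer motif made of E-box-like repeats, was in 0 of the 12 windows. It was in 0.089% of windows of the tested genes, too rare for 12 windows to show a lack of it. The E-box stretches of Max, Mxd4 and Mlx are shown because these 3 genes encode dimer partners that read this element, with the E-box in capitals and 30 bases given 5′ to 3′ on the strand of the gene.
Max, 3 bases before the start: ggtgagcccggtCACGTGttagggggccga
Mxd4, 219 bases before the start: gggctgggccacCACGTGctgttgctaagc
Mlx, 40 bases before the start: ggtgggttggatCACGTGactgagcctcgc

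Mlxipl had 2 annotated starts, 17001 bp apart, and both upstream regions are shown because they bear on what its count covers. The upstream start is the one known for ChREBPβ, a shorter and constitutively active form, and the downstream start is that of ChREBPα. The deposited gene model began at the downstream start, chromosome 5 position 135106891, so reads from the first exon at the upstream start were not counted there. The later exons are shared, so the Mlxipl count below cannot separate the isoforms. The 250 bases before each start follow, on the plus strand, with CACGTG in capitals. One E-box lay 98 bases before the upstream start, and none lay in the region before the downstream start.
Mlxipl upstream start, chr5:135089640-135089889: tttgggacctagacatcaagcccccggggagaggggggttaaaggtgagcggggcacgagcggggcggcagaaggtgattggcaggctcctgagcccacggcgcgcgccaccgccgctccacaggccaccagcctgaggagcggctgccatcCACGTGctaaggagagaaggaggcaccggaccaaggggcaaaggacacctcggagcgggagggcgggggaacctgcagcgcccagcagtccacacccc
Mlxipl downstream start, chr5:135106641-135106890: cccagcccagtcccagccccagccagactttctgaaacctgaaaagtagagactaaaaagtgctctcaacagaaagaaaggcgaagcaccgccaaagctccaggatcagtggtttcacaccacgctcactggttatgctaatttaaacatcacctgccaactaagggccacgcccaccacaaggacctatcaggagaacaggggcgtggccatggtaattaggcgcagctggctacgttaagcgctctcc

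Each library held 21027737 to 23249895 counts assigned to genes. Dhps itself did not separate the groups: it had 11.7, 12.7 and 11.4 CPM (a gene's count relative to the TMM-scaled library size) in the knockout-labelled libraries and 12.03, 13.4 and 12.3 CPM in the controls (log2 fold change −0.07 ± 0.12 SE, adjusted p = 0.742 in edgeR's quasi-likelihood test). Its count sums all 9 exons, takes in non-β islet cells and overlaps exons of Wdr83, so it does not check the deletion, and directions below refer to the labels. The islet identity of the libraries was plain, with Ins2 at 263136 CPM or more and Gcg at 36092 CPM or more in all 6. Acinar markers summed to 28944 to 32688 CPM in the knockout-labelled libraries and 1090 to 12121 CPM in the controls, with control 3 the lowest. Of 18 tested acinar markers 1 was called higher and 0 lower. Markers of myeloid cells, stellate cells and fibroblasts, endothelial cells and ducts had 6 of 15, 5 of 12, 4 of 11 and 2 of 7 tested genes higher and none lower in the knockout-labelled libraries. Over all 13736 genes tested, 4.14% were called higher and 2.63% lower. Of 9 tested lymphocyte markers 1 was higher, and their sum reached 79.5 CPM in knockout-labelled replicate 2, against 9.28 to 21.6 CPM in the other 5 libraries.

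Of the 10 network genes, all passed the expression filter, Myc rose, and the other 9 did not pass the threshold of 0.05 on the adjusted p. That is 10% of the members, where edgeR's quasi-likelihood test called 6.76% of all 13736 genes tested (4.14% higher and 2.63% lower). No member was called lower by limma-voom or by edgeR with all libraries and the low-count filter. In that edgeR fit 2, Mlxipl and Mxd1, had an unadjusted p under 0.05 in that direction. Both were called lower by DESeq2 and by edgeR with no filter on low counts. Those alternatives called 6.49% (limma-voom), 12.4% (DESeq2) and 7.84% (no filter) of the genes they tested. Before adjustment 5 of 10 members had a p under 0.05, 3 higher and 2 lower, where 26.5% of all genes did (14.9% higher and 11.6% lower). In 2 members the 3 knockout-labelled libraries lay above all controls and in 3 they lay below, where 32.1% of all genes did not overlap in either direction (16.9% above and 15.2% below). The members' median log2 fold change was −0.03, and the median over all genes tested was 0.01.

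**Figure D1:**
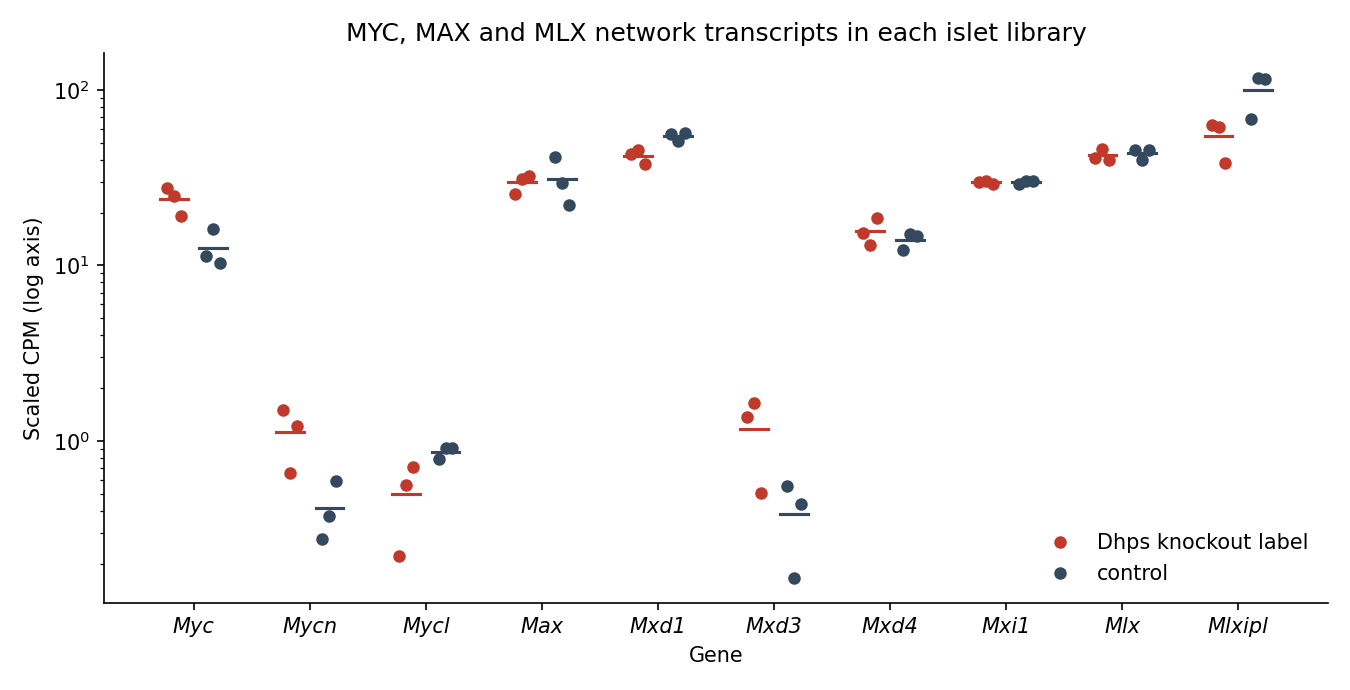
Scaled CPM (log axis) of the 10 network genes in each library, with knockout-labelled libraries in red to the left of controls in dark blue; points are libraries and bars are group means. Myc lies at 19.2 to 27.5 CPM in the knockout-labelled libraries, above the controls at 10.4 to 16.0 CPM, and Mlxipl shows the opposite order with control 1 close to the knockout-labelled libraries.

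Myc, the growth-promoting transcription factor that gives the network its name, lies on chromosome 15 from 61985341 to 61990361 (mm10, 3 exons). It had 27.5, 24.8 and 19.2 CPM in the knockout-labelled libraries and 11.4, 16.0 and 10.4 CPM in the controls. Every knockout-labelled library was above every control, and the nearest pair was knockout-labelled replicate 3 and control 2. The raw counts behind these values were 624, 527 and 378 against 246, 385 and 262. Myc rose 1.89-fold (log2 fold change 0.92 ± 0.19 SE, 95% interval 0.50 to 1.33, adjusted p = 0.0273 by edgeR's quasi-likelihood test). The call rested on single libraries: the adjusted p was 0.0922 without knockout-labelled replicate 1, 0.0513 without replicate 2 and 0.0793 without control 3, at log2 fold changes of 0.80, 0.88 and 0.78. Over all genes, edgeR called 0.437%, 5.21% and 2.53% of those tested without knockout-labelled replicates 1, 2 and 3, and 7.48%, 0.823% and 1.7% without controls 1, 2 and 3. With the mean log2 level of acinar markers added to the fit as a covariate, the Myc value was 0.67 (adjusted p = 0.505); that fit called 0% of genes (0 of 13736), and 1344 had an unadjusted p under 0.05. In bulk islets, more cells that express a gene and more RNA per cell cannot be told apart. Summed acinar, stromal, myeloid, endothelial and duct markers were, like Myc, higher under the knockout label. From knockout-labelled replicate 1 to 3 the acinar sum rose (28944, 31423 and 32688 CPM). The stromal (635, 562 and 491 CPM) and endothelial (650, 555 and 550 CPM) sums fell, as Myc did. The duct sum was 949, 703 and 715 CPM, and the myeloid sum 630, 943 and 549 CPM. From control 1 to 3 the acinar sum was 12121, 10502 and 1090 CPM, and the stromal sum 176, 296 and 435 CPM. The endothelial sum was 390, 506 and 492 CPM there, the duct sum 504, 510 and 390 CPM, and the myeloid sum 447, 463 and 454 CPM. Proliferation markers summed to 190 to 209 CPM in the knockout-labelled libraries and 91.8 to 131 CPM in the controls. Of these, 13 of 20 were called higher, against 4.14% of all genes tested, among them Mki67 (log2 fold change 2.06 ± 0.48). The part of these markers in the Myc result was not tested, nor was it for Mycn and Mxd3 below. The covariate fit was no such test. Acinar sums did not overlap between the labels, so that fit cannot fully tell label and acinar content apart.

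The paralogs Mycn and Mycl were near the limit of what these counts resolve. Mycn, best known for its role in progenitor and neural growth, had 34, 14 and 24 counts in the knockout-labelled libraries and 6, 9 and 15 in the controls. The highest control, control 3, was close to the lowest knockout-labelled library, replicate 2, at 0.593 against 0.658 CPM. Its log2 fold change was 1.41 ± 0.50, with an interval of 0.30 to 2.53 and an adjusted p of 0.108 by edgeR's quasi-likelihood test. Mycl, the lung carcinoma-derived relative, had 5, 12 and 14 counts in the knockout-labelled libraries and 17, 22 and 23 in the controls. The groups did not overlap, and the log2 fold change of −0.81 ± 0.50 had an interval of −1.92 to 0.29 that spans no change (adjusted p = 0.327). At a minimum of 1 CPM in 3 libraries, Mycn, Mycl and Mxd3 were not tested.

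Max, the partner that MYC and MXD proteins share, varied more among controls than between the groups. It had 25.6, 31.2 and 32.4 CPM in the knockout-labelled libraries and 41.6, 29.6 and 22.2 CPM in the controls. The control values spanned the whole range of the other group. The log2 fold change was −0.07 ± 0.20, with an interval of −0.51 to 0.38, so these data allow a difference of either sign (adjusted p = 0.872). It turned to 0.20 without control 1 and to 0.03 without knockout-labelled replicate 1, and with the acinar covariate it was −0.61.

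**Figure D2:**
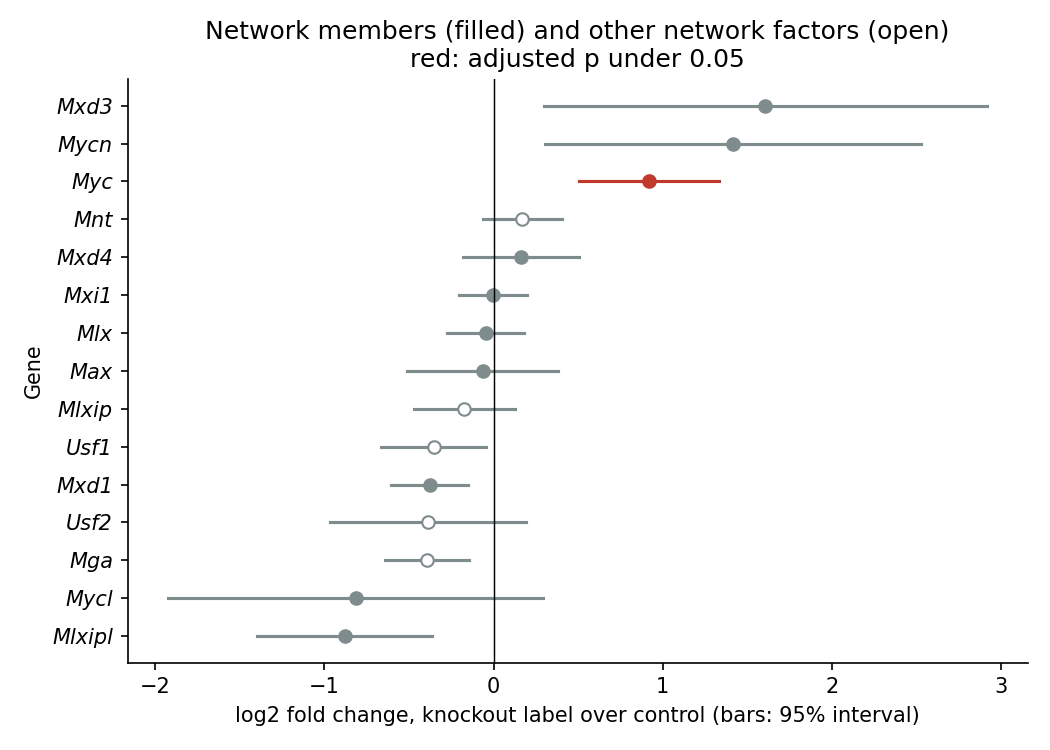
Log2 fold change, knockout label over control, of the 10 network genes (filled points) and 5 further E-box factors (open points), with 95% intervals from edgeR's quasi-likelihood fit; red marks an adjusted p under 0.05. Myc at 0.92 is the red point, and the intervals of Mlxipl, Mxd1, Mga and Usf1 lie below 0, and those of Mycn and Mxd3 above it, without passing after adjustment.

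Among the MXD repressors, Mxd1 differed in the direction opposite to Myc without passing the threshold. Mxd1 encodes MAD1, which is known to appear as cells leave the cycle and differentiate. It had 43.0, 45.3 and 38.0 CPM in the knockout-labelled libraries and 56.4, 51.5 and 56.5 CPM in the controls. No library of one group reached the other, and the spread within each group was small (SD 3.73 and 2.87, n = 3 each). The log2 fold change was −0.38 ± 0.10, with an interval of −0.60 to −0.15 and an adjusted p of 0.0526. DESeq2 called it (adjusted p = 0.0226) and so did edgeR with no filter on low counts (adjusted p = 0.0375), while leaving out any library gave adjusted p between 0.0562 and 0.139.

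Mxi1, Mxd4 and Mxd3 completed the MXD group. Mxi1, the second MXD family repressor, was at 29.7, 30.4 and 29.2 CPM in the knockout-labelled libraries and 28.9, 30.4 and 30.3 CPM in the controls. The groups overlapped closely, and the interval of its log2 fold change ran from −0.21 to 0.20. Mxd4, a repressor that also pairs with MLX, was at 15.2, 13.2 and 18.7 CPM in the knockout-labelled libraries and 12.2, 15.1 and 14.8 CPM in the controls (log2 fold change 0.16 ± 0.15, interval −0.18 to 0.50). The groups overlapped. Mxd3, the family member known for expression in cells in S phase, had 31, 35 and 10 counts in the knockout-labelled libraries and 12, 4 and 11 in the controls. Replicates 1 and 2 of the knockout label stood above the rest, and replicate 3 was within the control range. Its log2 fold change of 1.60 ± 0.59 gave an adjusted p of 0.118 (interval 0.30 to 2.91). Exons of Mxd3 overlap those of Prelid1, which had a mean of 1207 counts, so the Mxd3 count is uncertain.

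Mlxipl, the gene of ChREBP, lies on chromosome 5 from 135106891 to 135138382 (17 exons) and was lower in the knockout-labelled libraries without passing the threshold. It had 63.5, 61.7 and 38.1 CPM in the knockout-labelled libraries and 68.2, 116.9 and 115.5 CPM in the controls. The groups did not overlap, but control 1 lay next to knockout-labelled replicate 1 and far from the other controls, and replicate 3 was the lowest library. The log2 fold change was −0.88 ± 0.23, with an interval of −1.40 to −0.36, and the adjusted p of 0.0505 by edgeR's quasi-likelihood test just missed the threshold. Without control 1 it passed (log2 fold change −1.09, adjusted p = 0.0213), and without any other single library it did not, at values from −1.01 to −0.68. DESeq2 called it at an adjusted p of 0.00116, and edgeR with no filter at 0.0157. With the acinar covariate the edgeR value was −0.52 (adjusted p = 0.648), in a fit that called 0 of 13736 genes.

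Summed β cell markers that are not hormones were lower under the knockout label, as was Mlxipl. Knockout-labelled replicate 3 was the lowest library for both, with a sum of 2543 CPM. Control 1, the lowest control for Mlxipl, had the highest such sum, 4290 CPM. Of the 9 β cell markers that are not hormones, 6 were called lower and none higher, where 2.63% of all genes tested were lower and 4.14% higher. Their summed level was 2543 to 3155 CPM in the knockout-labelled libraries and 3860 to 4290 CPM in the controls. With Ins1, Ins2 and Iapp included the sums overlapped, at 393855 to 448442 CPM in the knockout-labelled libraries and 367498 to 496288 CPM in the controls. The part of β cell content in the Mlxipl difference was not tested.

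Mlx, the partner that ChREBP requires to bind DNA, had 41.1, 45.8 and 40.1 CPM in the knockout-labelled libraries and 45.5, 39.96 and 45.7 CPM in the controls. The groups overlapped, and the log2 fold change of −0.05 ± 0.10 had an interval of −0.27 to 0.18. Exons of Mlx overlap those of Psmc3ip, which had a mean of 25.8 counts.

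**Figure D3:**
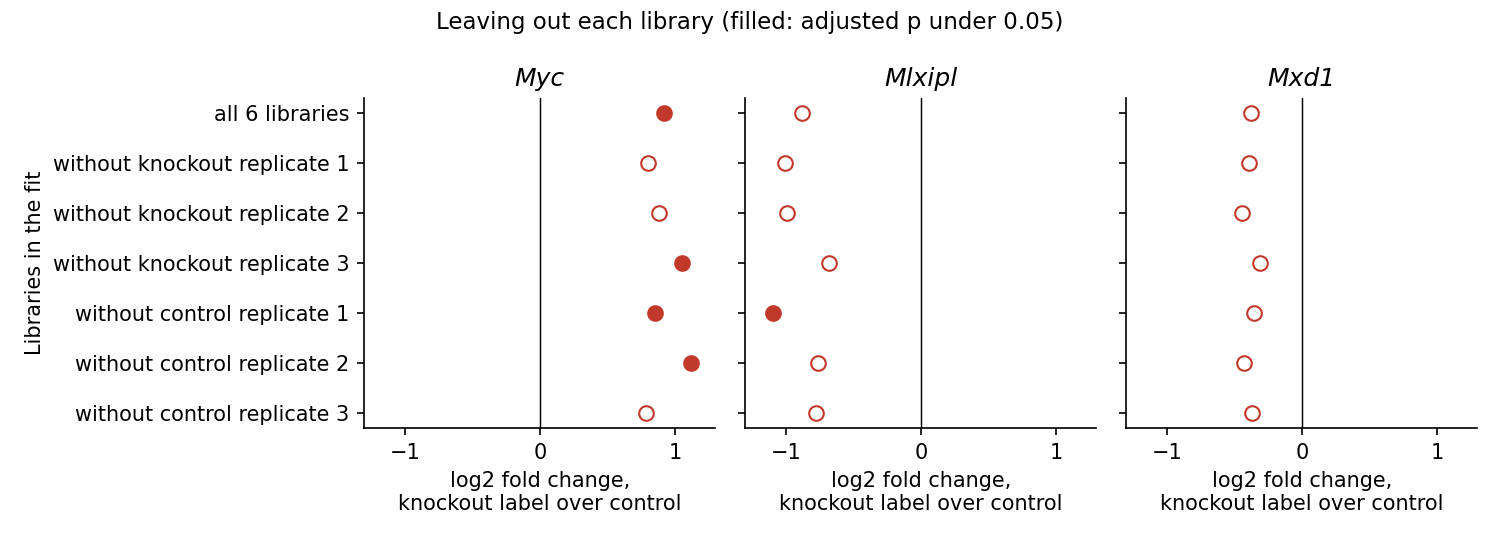
Log2 fold change, knockout label over control, of Myc, Mlxipl and Mxd1 with all 6 libraries and with each library left out; filled points have an adjusted p under 0.05. Myc stays between 0.78 and 1.12 but is filled in 3 of 6 such fits, Mlxipl lies between −1.09 and −0.68 and is filled only without control 1, and Mxd1 is filled in none.

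Per kilobase of exon, a scale on which genes can be compared, the order of the network genes by mean level was not the same under both labels: Mlxipl and Myc held other places among the more abundant genes, and Mycn and Mycl were exchanged at the low end. In the knockout-labelled libraries Mlx led at 21.4 CPM per kb, apart from the next gene. Mlxipl (14.9), Max (14.8), Mxd4 (13.3), Myc (9.92) and Mxd1 (9.04) followed, each with values that overlapped its neighbour in this order, and then Mxi1 (5.30), apart from both neighbours. Mxd3 (0.902) and Mycn (0.433) overlapped, and Mycl (0.136) was lowest and apart.

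In the controls Mlxipl led at 27.5 CPM per kb, followed by Mlx (22.1), Max (15.5), Mxd4 (11.9) and Mxd1 (11.8), each overlapping its neighbour. Mxi1 (5.31) and Myc (5.25) came next and overlapped each other, below and apart from Mxd1. Mxd3 (0.297), Mycl (0.238) and Mycn (0.160) were lowest, and their neighbours overlapped.

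Summed by role on the same scale, the 3 MYC genes took 13.2%, 11.4% and 10.2% of the network's total in the knockout-labelled libraries and 5.31%, 6.84% and 4.75% in the controls. Mlxipl took 19.0%, 18.0% and 12.3% in the knockout-labelled libraries and 19.6%, 31.0% and 31.3% in the controls. The share of the MYC genes was thus higher in each knockout-labelled library, and that of Mlxipl was nearly equal in knockout-labelled replicate 1 and control 1. The 4 MXD genes took 31.1%, 29.3% and 34.7% in the knockout-labelled libraries and 29.3%, 28.4% and 30.1% in the controls, which overlap. The ratio of Myc to Mxd1, a pair picked after their values were seen, was 1.24, 1.06 and 0.981 in the knockout-labelled libraries and 0.392, 0.606 and 0.356 in the controls.

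**Figure D4:**
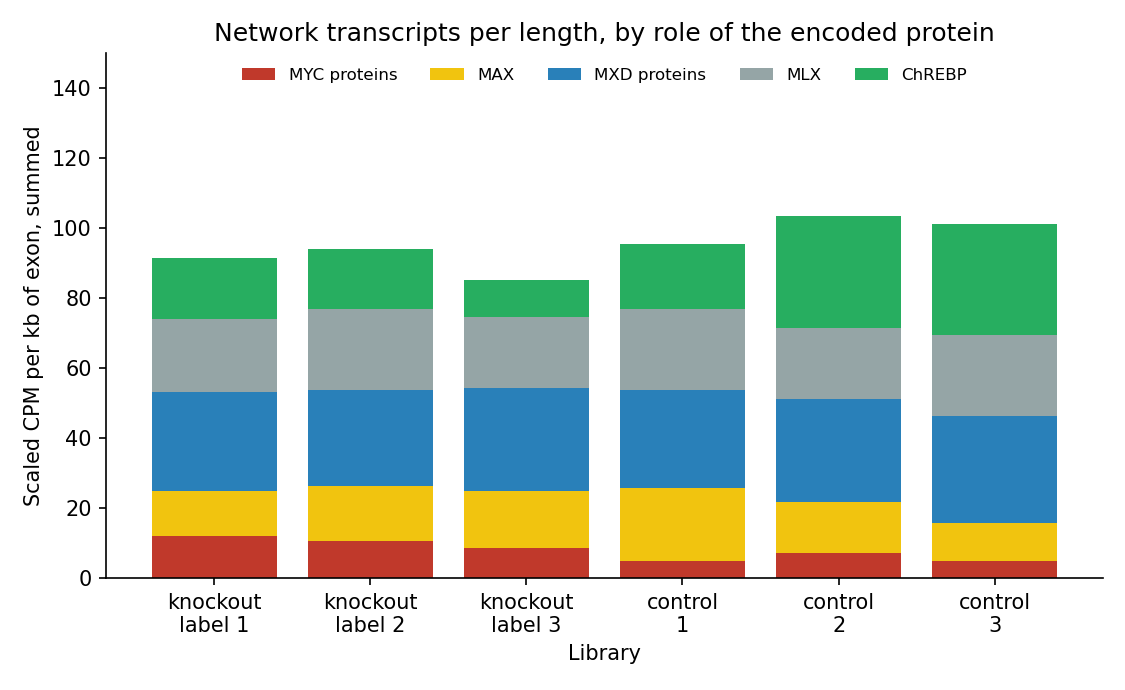
Scaled CPM per kb of exon in each library, knockout-labelled libraries left of controls, stacked by the role of the encoded protein (MYC proteins, MAX, MXD proteins, MLX, ChREBP). The total is 85.2 to 93.9 in the knockout-labelled libraries and 95.5 to 103.5 in the controls; the red MYC segment is taller and the green ChREBP segment shorter on the left, with control 1 as the lowest control for ChREBP.

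Other factors of the network, and the E-box factors USF1 and USF2, were not called by edgeR with all libraries and the low-count filter. Mga, which encodes a MAX partner of a Polycomb repressor complex, had 21.4, 25.6 and 20.8 CPM in the knockout-labelled libraries and 28.2, 30.2 and 30.9 CPM in the controls. The groups did not overlap, and the log2 fold change was −0.40 ± 0.11 (adjusted p = 0.0599). DESeq2 called Mga at an adjusted p of 0.0413, and so did edgeR with no filter (0.0453) and without knockout-labelled replicate 2 (0.0419). Usf1 passed without control 1 (adjusted p = 0.0420). Mnt, a MAX-binding repressor, had a log2 fold change of 0.17 ± 0.10, and Mlxip, the MondoA gene, −0.17 ± 0.13. Usf1 and Usf2 were at −0.35 ± 0.14 and −0.39 ± 0.26. The median of these 5 genes was −0.35, and it was −0.03 with the acinar covariate.

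None of the 11 genes of the SIN3 and NCOR corepressor complexes, through which MXD proteins silence genes, was called (median log2 fold change −0.11, 1 with an unadjusted p under 0.05, none called by DESeq2). Of 14 MYC cofactors 1 was called (7.14%, against 6.76% of all tested genes). Ep300, which encodes the acetyltransferase p300, fell. It had 23.5, 24.2 and 18.5 CPM in the knockout-labelled libraries and 31.6, 35.6 and 33.1 CPM in the controls, and fell by 0.60 on the log2 scale (SE 0.12, adjusted p = 0.0280). Of 18 tested factors of MYC protein turnover 1 was called (5.56%). Plk1, which encodes a mitotic kinase that also stabilises MYC proteins, rose. It had 61, 51 and 64 counts in the knockout-labelled libraries and 22, 10 and 9 in the controls (log2 fold change 2.23 ± 0.44, adjusted p = 0.0254 by edgeR). With the acinar covariate, a fit that called 0 of 13736 genes, its log2 fold change was 1.41. Plk1 is a mitotic gene, and the proliferation markers given above were higher in the same libraries.

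Among known MYC targets of ribosome and nucleotide synthesis 3 of 28 rose, 0 fell and 25 were not called, with a median log2 fold change of 0.09. Calls made up 10.7% of this list, against 6.76% of all tested genes. Odc1, the first enzyme of polyamine synthesis and a direct MYC target, had 182.8, 172.3 and 210.5 CPM in the knockout-labelled libraries and 126.9, 91.4 and 106.8 CPM in the controls. The lowest knockout-labelled library was well above the highest control, and Odc1 rose 1.74-fold (log2 fold change 0.80 ± 0.14, adjusted p = 0.0169). The nucleoside diphosphate kinases Nme1 (0.51 ± 0.13) and Nme2 (0.55 ± 0.13) also rose; they are neighbouring paralogs of close sequence, so their counts may share reads. With the acinar covariate, a fit that called 0 of 13736 genes, Nme2 was at 0.36. None was called lower in edgeR's test or DESeq2, and 2 had an unadjusted p under 0.05 in that direction. The remaining nucleolar genes of the list, which include nucleolin and nucleophosmin, were not called.

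Among MYC targets of growth and the cell cycle 2 of 22 rose, 1 fell and 19 were not called, with a median of 0.23. Calls made up 13.6% of this list, against 6.76% of all tested genes. Mcm5, a subunit of the replicative helicase, had 9.72, 11.4 and 13.7 CPM in the knockout-labelled libraries and 4.35, 2.67 and 3.12 CPM in the controls (log2 fold change 1.78 ± 0.22, adjusted p = 0.00720). Ldha, which encodes lactate dehydrogenase A and is normally low in β cells, had 37.8, 49.8 and 34.1 CPM in the knockout-labelled libraries and 20.7, 22.8 and 15.6 CPM in the controls (1.04 ± 0.17, adjusted p = 0.0165). With the acinar covariate, a fit that called 0 of 13736 genes, Ldha was at 0.68. Tfrc, the transferrin receptor, fell by 0.57 (SE 0.14, adjusted p = 0.0390). The cell cycle genes Ccnd2 (−0.20 ± 0.14) and Cdk4 (−0.15 ± 0.09) were not called.

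E-boxes are shown for Ldha and Nme1 because they are called MYC targets with CACGTG in a promoter window. The other called MYC targets, Odc1, Nme2, Mcm5 and Tfrc, had windows without it. Of 104 listed partners and targets with a window, 23 held the element (22.1%), against 11.5% of the tested genes with a window.
Ldha, 145 bases before the start: ggtgtcgcagcaCACGTGgagccactcttg
Ldha, 48 bases before the start: cggcccagcctaCACGTGggttcccgcacg
Nme1, 18 bases before one start: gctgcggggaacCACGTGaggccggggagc
Nme1, 29 bases before another start: agcttgatacgcCACGTGggctcgcctttg

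Targets of ChREBP did not move one way: 1 of 25 tested rose, 2 fell and 22 were not called, with a median log2 fold change of −0.02. Calls made up 12% of this list, against 6.76% of all tested genes. Rgs16, a regulator of G protein signalling that glucose induces in islets, had 26.0, 26.2 and 23.6 CPM in the knockout-labelled libraries and 38.9, 56.3 and 51.4 CPM in the controls. The groups were clearly apart, and Rgs16 fell by 0.95 on the log2 scale (SE 0.14, adjusted p = 0.0115). Bhlhe40, which encodes a transcriptional repressor, fell by 0.92 (SE 0.21, adjusted p = 0.0346), at 68.3, 85.3 and 45.3 CPM in the knockout-labelled libraries and 101.5, 136.6 and 137.7 CPM in the controls. Pfkfb3, which makes a stimulator of glycolysis, rose by 0.75 (SE 0.17, adjusted p = 0.0339), a call that any single left-out library ended (adjusted p 0.0560 to 0.0945).

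Txnip, among the most glucose-responsive genes of the β cell and a direct ChREBP target, had 171.2, 147.0 and 201.8 CPM in the knockout-labelled libraries and 125.2, 213.9 and 149.0 CPM in the controls. The groups overlapped, with a log2 fold change of 0.09 ± 0.19 and an interval of −0.33 to 0.52 (adjusted p = 0.802). Pklr, the liver-type pyruvate kinase gene in which the response element was first described, was at −0.18 ± 0.16 (interval −0.54 to 0.19).

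**Figure D5:**
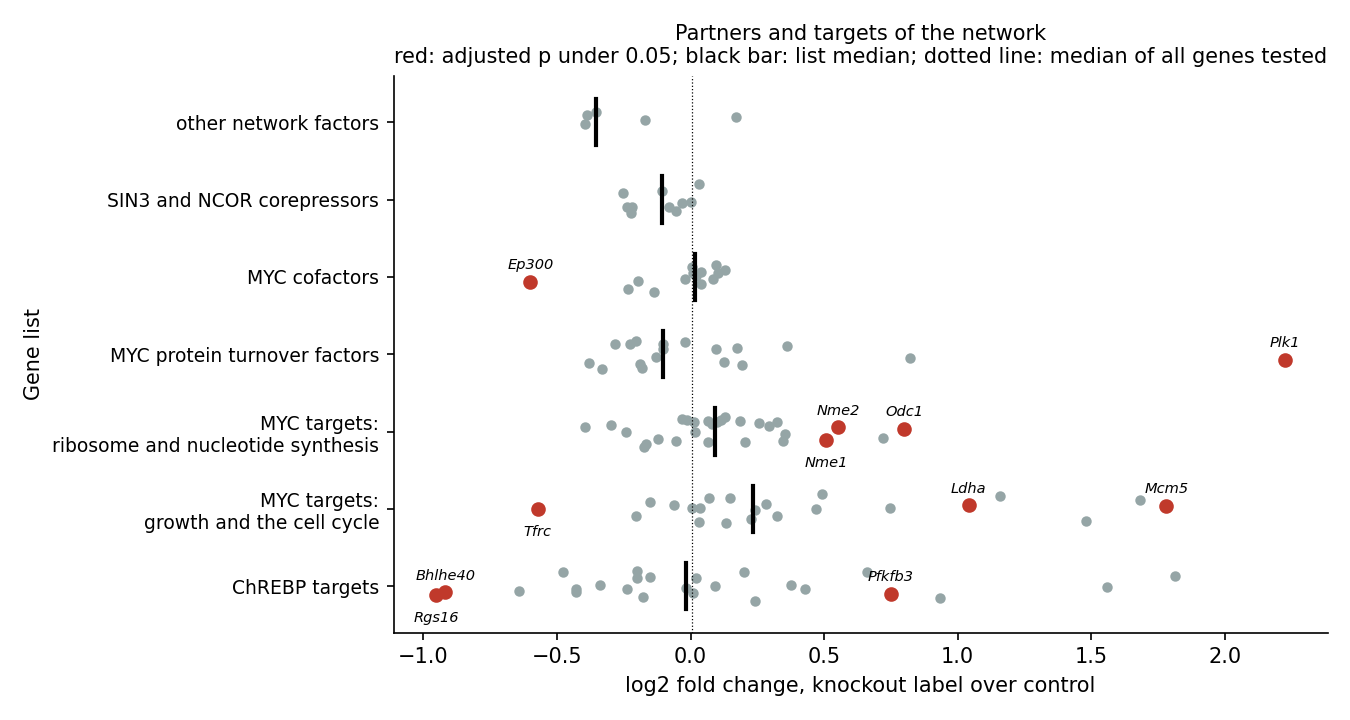
Log2 fold change, knockout label over control, of each tested gene in 7 lists of network partners and targets; red points have an adjusted p under 0.05, black bars are list medians and the dotted line is the median of all genes tested. Called genes lie on both sides of 0 in the growth list and among ChREBP targets, and list medians run from −0.35 to 0.23.

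Over these 7 lists together, 7 of 123 tested genes rose and 4 fell, where 4.14% of all tested genes rose and 2.63% fell. Calls fell when some libraries were left out, here and over all genes. Without knockout-labelled replicate 1 they were 1 higher and 0 lower, and without replicate 3 they were 3 and 1. Without control 2 they were 2 and 1, and without control 3 they were 3 and 1. Over all genes those fits called 0.437%, 2.53%, 0.823% and 1.7%, against 6.76% with all libraries. Counts over every left-out library ran from 1 to 7 higher and 0 to 6 lower. Of the 11 genes called with all libraries, Mcm5 passed whichever library was left out (adjusted p 0.00880 to 0.0292), and the other 10 each missed the threshold in at least 1 such fit. Their highest adjusted p in those fits ran from 0.0518 for Ldha and Rgs16 to 0.149 for Nme1.

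The genes whose centred log2 CPM over the 6 libraries lay nearest to that of Myc were S100a16, a calcium-binding protein gene (root-mean-square distance 0.07), Ano1, a calcium-activated chloride channel gene (0.08), and Ly6a, a surface antigen gene of endothelial and progenitor cells (0.09). S100a16 had 16.5, 13.1 and 10.01 CPM in the knockout-labelled libraries and 6.02, 8.42 and 5.85 CPM in the controls, the same order of libraries within each label as for Myc. Nearest to Mlxipl were St8sia1, a sialyltransferase gene (0.06), Grk5, a kinase gene of G protein-coupled receptors (0.09), and Myt1, a neuroendocrine transcription factor gene (0.10). These distances were taken among 9845 genes and describe 6 libraries.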

How the data were processed

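Islet RNA was measured in 6 mouse libraries. Per the labels' protocols, poly-dT priming and SMART-Seq v4 chemistry gave cDNA from 10 ng of RNA, which was sheared before library preparation. Listed tools, per the submitters' processing notes, are edgeR, featureCounts, STAR 2.4.2a and Subread 1.5.0, with mm10 as build. For annotation, strand and counting settings, details were not given in the sources used here. Deposited by the authors were whole-number counts per gene, not normalized, with the summed exon length in bp as another, descriptive unit, per the file headers.

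Members, lists, tests and alternatives were chosen with earlier results of these data known. Counts were tested in edgeR 4.0.16 (R 4.3.3) by quasi-likelihood, with the label as the only term, TMM factors and filterByExpr by label. P-values were adjusted by Benjamini-Hochberg across the 13736 genes tested, and genes under 0.05 were called. Intervals of fold changes are 95%. CPM used the TMM-scaled library sizes, with 0.5 added to counts for log2 values. The procedure was tested on simulated data. Overlapping exons were found with GenomicRanges 1.54.1.

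Named genes were the 10 members, 5 other E-box factors, Dhps, Mki67, Txnip, Pklr, Odc1, Ccnd2 and Cdk4, up to 4 called genes per direction from each list, and, for Myc and for Mlxipl, the 3 nearest genes whose average log2 CPM reached 2. Of 125 listed partners and targets, 123 were tested: Tm6sf2 was below the filter and the symbol Cip2a did not match. The fit was repeated with DESeq2 1.42.0, limma-voom (limma 3.58.1), upper-quartile or RLE factors, no filter, a minimum of 1 CPM in 3 libraries, a replicate block, an acinar covariate, acinar and hormone genes removed from library sizes, and 1 library left out at a time.

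Pairs of libraries of one label differed beyond counting noise (chi-square per degree of freedom 11.2 or more), and none was merged with another; whether they are biological or technical replicates is not known from this.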

Additional observations from a re-analysis of the deposited data

How the results depend on the processing

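With 3 libraries per label and counts below 40 for Mycn, Mycl and Mxd3, changes of these genes under several-fold were not resolved. Of the 16 named genes that were called, none changed direction under the alternatives run, and 68 of their 240 values there missed the threshold. Many of them were named because the chosen fit called them, and the alternatives used the same libraries, so the kept direction is no independent check. No member was lower in the chosen fit, against 2 (Mlxipl and Mxd1) in DESeq2 and 2 when low counts were kept. DESeq2 also called 8 listed partners and targets lower, against 4. With the acinar covariate, which cannot be fully told apart from the label, 0 members were higher, and 0 listed genes were higher or lower. That fit called 0 of all 13736 genes. Leaving out each library gave 0 to 1 members higher, 0 to 1 lower, 1 to 7 listed genes higher and 0 to 6 lower. The sign of genes near no change turned: Mxi1 was 0.023 with upper-quartile factors, 0.00476 at a minimum of 1 CPM in 3 libraries, 0.0254 with the acinar covariate, and −0.0293 to 0.00934 over the left-out libraries. With that covariate Mlx was 0.00695 and Mlxip 0.0571. Over the left-out libraries Max ran from −0.27 to 0.20 and Txnip from −0.0662 to 0.33. The cause of these turns was not tested. Over all genes edgeR called 929, DESeq2 1702, and edgeR 60 and 348 when knockout-labelled replicate 1 or 3 was left out, 113 and 234 when control 2 or 3 was.

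Libraries with the same replicate number deviated together with correlations of −0.04, −0.01 and 0.06 over genes. Those with different numbers ran from −0.11 to 0.12. With 3 libraries per label these values cannot settle whether the numbers pair the libraries. With the number as a replicate block, 1 member was higher (Myc, log2 fold change 0.93, adjusted p = 0.0170 by edgeR) and 0 lower. In that fit 8 listed genes were higher and 4 lower, 826 of all 13736 genes were called, and Dhps was at −0.07.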
